A study of Dendroctonus valens with 12 samples.

Results

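The 150 unigenes described here are those of *Dendroctonus valens*, the red turpentine beetle, that were most clearly higher in every larva than in every adult. They were chosen by their values among 58956 unigenes: the lowest of the 6 larval values plus 1 was divided by the highest of the 6 adult values plus 1, and the 150 largest ratios were taken. A unigene is a gene-level sequence of a transcriptome assembled without a genome. The study sequenced RNA of 12 whole insects taken from the field, to ask which genes differ between a cold and a warm month. The 4 groups, of 3 insects each, were January larvae (labelled cold, mature larva), larvae of May (labelled normal, mature larva), January adults (cold) and May adults (normal), and each library held a single insect. Neither genotype nor sex is given in the sources used here, and no treatment is named. January and May differ in temperature and in everything else that changes with the season in the field, and these cannot be told apart. A whole insect holds its gut content and any other organism in it. More cells of a type and more RNA per cell cannot be told apart in such a library. Levels are in FPKM, which sets the fragments of a unigene against its length and against all fragments mapped in that library.

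Beetles pass through a full metamorphosis, so larvae and adults use different cuticles, mouthparts and guts from the same genome. Larvae of *D. valens* feed in the phloem under pine bark and grow through successive moults, and each moult needs a new cuticle built of chitin and cuticle proteins. Larvae of bark beetles in cold regions can overwinter under bark, when feeding and growth slow down. Insects have many lineage-specific secreted and structural proteins with no named relative.

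The larvae were not uniform libraries. FPKM summed to 1065219 to 1788297 per larva and 787758 to 1077032 per adult, and a larva had 8291 to 25771 unigenes at 1 FPKM or more. January larva 3 and May larva 1 shared 4823 unigenes at 1 FPKM or more that were under 0.1 FPKM in the other 4 larvae. These took 4.88% and 4.07% of their FPKM, at most 0.00669% in the other larvae and 0.148% to 9.51% in adults. None of the 150 unigenes was among them. None of the 17 of the 150 with a row in the annotation used here had a nematode as its best match, and the other 133 could not be checked. The study named nematode sequences as a contaminant and states that it deleted them and annotated again. It reports fewer unigenes than the 58956 measured here, and whether the values used here precede that deletion was not tested. In the annotation used here 59 of the unigenes measured had a nematode as best match. The origin of the 4823 shared unigenes was not tested. Season results without January larva 3 and May larva 1 are given with the season results.

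The name larva-specific held for only some of the 150. Ratios ran between 1.26 and 543 with a median of 1.72, and 64 unigenes had a ratio of 2 or more, 16 had 10 or more and 4 had 100 or more. In 24 unigenes no adult reached 1 FPKM, and in 4 every adult was listed at 0. At the other end, 113 of the 150 reached 1 FPKM in at least 3 adults, and the highest adult value was 3454 FPKM. The lowest larva had 0.42 to 6110 FPKM (median 37.5), and 144 unigenes were at 1 FPKM or more in all 6 larvae. The larval median was under 5 times the adult median in 42 unigenes. These values describe the choice and were not tested.

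**Figure D1:**
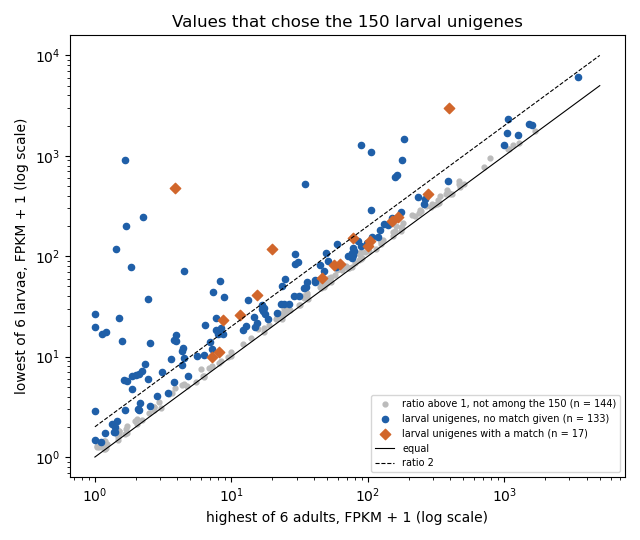
The lowest of the 6 larvae (vertical axis) is plotted against the highest of the 6 adults (horizontal axis), as FPKM + 1 on log scales, for the 150 chosen unigenes (17 of them with a match, diamonds) and for the 144 others with a ratio above 1 (grey). Ratios of 2 or more, above the dashed line, were reached by 64 unigenes, and the rest lie close to the line of equal values.

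The threshold fell in a dense part of the ranking. The last unigene taken, TRINITY_DN19727_c0_g1, had a ratio of 1.262, with 64.8, 95.8 and 65.3 FPKM in January larvae, against 45.4, 26.1 and 64.9 FPKM in May larvae. The first one left out, TRINITY_DN24113_c0_g2, had a ratio of 1.260, with 172, 114 and 107 FPKM in January larvae, against 132, 157 and 139.7 FPKM in May larvae and up to 84.8 FPKM in an adult. The other unigenes just inside, TRINITY_DN17667_c0_g1, TRINITY_DN25365_c0_g1, TRINITY_DN21048_c1_g2 and TRINITY_DN24875_c0_g1, had ratios of 1.270, 1.268, 1.265 and 1.262. Those just outside, TRINITY_DN25191_c1_g1, TRINITY_DN24929_c0_g1, TRINITY_DN27538_c4_g1 and TRINITY_DN20562_c0_g1, had 1.258, 1.254, 1.251 and 1.248. At this end a unigene could be abundant in adults too, as TRINITY_DN21048_c1_g2 was with 75.7, 65.1 and 69.8 FPKM in January adults, against 39.2, 31 and 27.5 FPKM in May adults.

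The unigene with the largest ratio, TRINITY_DN18275_c0_g1 (ratio 543), was among the most abundant transcripts of larvae and almost without signal in adults. It had 901, 2668 and 2113 FPKM in January larvae, against 26456, 25109 and 31348 FPKM in May larvae, and 5 of the 6 adults were listed at 0 with 0.66 FPKM in the other, May adult 3. TRINITY_DN22255_c0_g1, which matched a hypothetical *Dendroctonus* protein, came second (ratio 122) with 473, 5236 and 2813 FPKM in January larvae, against 7349, 17720.3 and 2856 FPKM in May larvae. Its adults lay at 0.22 to 2.89 FPKM, and its 2 larval groups overlapped. TRINITY_DN12933_c0_g1 (ratio 117) had 197, 232 and 788 FPKM in January larvae, against 1694, 1621 and 4767 FPKM in May larvae, and TRINITY_DN18554_c0_g1 (ratio 109) had 243, 618 and 565 FPKM in January larvae, against 4923, 2988 and 3976 FPKM in May larvae. Both were lower in every January larva than in any May larva, and neither passed 1.25 FPKM in an adult.

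The next 6 unigenes had lower larval levels. TRINITY_DN19009_c0_g1 had 151, 116 and 218 FPKM in January larvae, against 324, 509.8 and 868 FPKM in May larvae, and TRINITY_DN19227_c0_g1 had 76.9, 245 and 146 FPKM in January larvae, against 244, 177 and 578 FPKM in May larvae. TRINITY_DN24129_c0_g2 and TRINITY_DN16559_c0_g1 were listed at 0 in all 6 adults, so no fold is given for them. The first had 25.7, 46.8 and 57.5 FPKM in January larvae, against 145, 80.3 and 120.3 FPKM in May larvae, and the second had 18.8, 19.3 and 54.9 FPKM in January larvae, against 46.3, 29.2 and 28.1 FPKM in May larvae. TRINITY_DN17141_c0_g1 had 64.3, 48.9 and 23.4 FPKM in January larvae, against 821, 246 and 1504 FPKM in May larvae, every January larva below every May larva. The tenth, TRINITY_DN14382_c0_g1, was the only one of the 10 with every January larva above every May larva, at 124, 148 and 259.7 FPKM in January larvae, against 70.7, 106 and 89.7 FPKM in May larvae, and it lay at 0.23 to 3.47 FPKM in adults. Its log2 fold change between months was 0.93 ± 0.38 (SE) as deposited but turned to -0.49 with the median-of-ratios scaling and -0.04 with the *Dendroctonus* scaling described with the season results. Of these 10 unigenes only TRINITY_DN22255_c0_g1 had a match in the annotation used here.

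**Figure D2:**
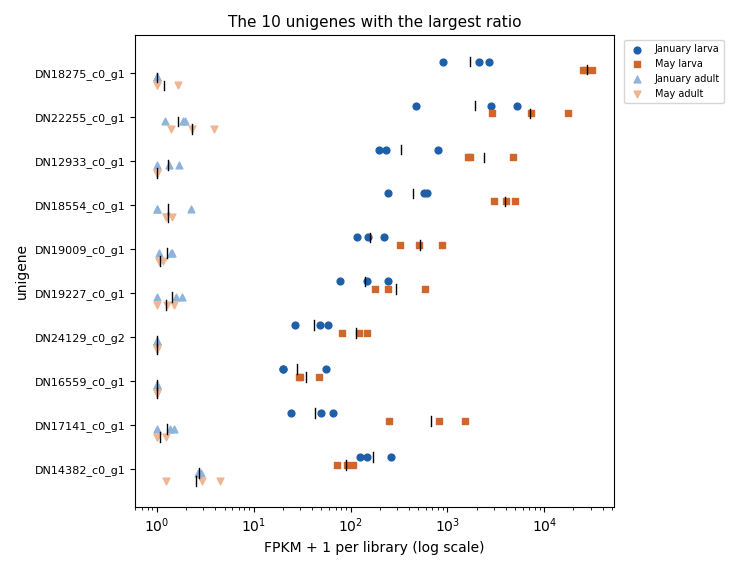
Each point is 1 library, as FPKM + 1 on a log scale, for the 10 unigenes with the largest ratio, with larvae above adults, and January above May, in each row, and a bar at the mean of log2(FPKM + 1). Adults stay at or below 3.47 FPKM while larvae lie between 18.8 and 31348 FPKM.

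The 150 unigenes took a large and variable share of the larval libraries. They held 7.13%, 10.1% and 7.82% of all FPKM in January larvae, against 16.2%, 30.8% and 8.74% in May larvae. The January larvae averaged 8.35% ± 1.55 and the May larvae 18.6% ± 11.2 (SD, n = 3 each), with p = 0.2 in a two-sided exact permutation test whose smallest p is 0.1. In adults they held 0.796% to 1.29%, which the choice itself made low. The 5 most abundant unigenes (TRINITY_DN20229_c0_g1, TRINITY_DN18275_c0_g1, TRINITY_DN21515_c1_g1, TRINITY_DN20253_c0_g1 and TRINITY_DN21253_c0_g1) made up 2.69% ± 1.53 of FPKM in January larvae, against 12.2% ± 8.21 in May larvae (p = 0.1 by exact permutation, the smallest possible). The other 145 made up 5.66% ± 0.502 in January larvae, against 6.42% ± 3.01 in May larvae (p = 0.9 by exact permutation). The 5 were picked by their mean FPKM over these same 6 larvae, without regard to month, and high May values raise that mean. The split therefore only describes these libraries. The 5 held 10.4%, 21.1% and 4.98% of FPKM in May larvae 1, 2 and 3. An FPKM share falls when other transcripts of the same library rise, which this comparison does not separate.

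**Figure D3:**
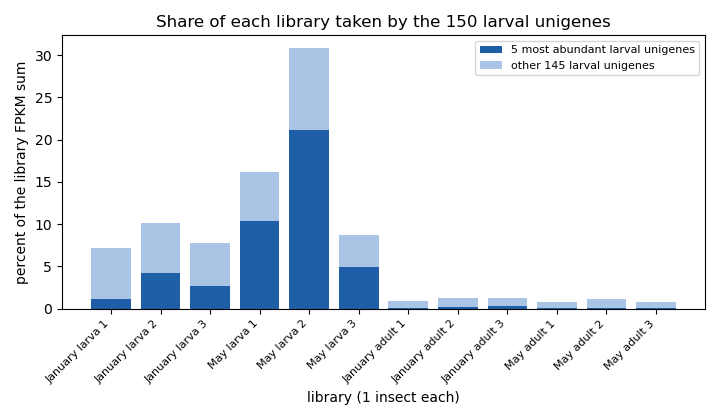
Bars give the percent of each library's FPKM sum held by the 150 unigenes, split into the 5 most abundant (dark) and the other 145 (light), 1 bar per insect. May larva 2 stands highest at 30.8%, the larvae with the next highest shares are May larva 1 (16.2%) and January larva 2 (10.1%), and every adult is at 1.29% or less.

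TRINITY_DN20229_c0_g1 was the most abundant of all, with a mean of 40909 FPKM over the 6 larvae. It had 2967, 17425 and 4556 FPKM in January larvae, against 58620.5, 131853 and 30035 FPKM in May larvae, the groups not overlapping, and alone took 12.4% of the FPKM of May larva 2. Its best match is an uncharacterized *Dendroctonus ponderosae* protein, so no role can be given. In adults its order was turned round, with 42.9, 390.1 and 76.4 FPKM in January adults, against 3.78, 1.75 and 5.22 FPKM in May adults. Its season difference in larvae did not pass the test used here (log2 fold change -3.31 ± 0.99 (SE), limma adjusted p = 0.0285). The study, with its own test on read counts (DESeq2), counted this unigene among those differing between months in both larvae and adults. The study also measured it by quantitative PCR and reports differences like those of its RNA-seq. The primers of this unigene are shown because they are the part of its sequence given in the sources used here.
Forward primer of TRINITY_DN20229_c0_g1: tgcagtggagattggagcag
Reverse primer of TRINITY_DN20229_c0_g1: tgttgacgccattagccact

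The other abundant unigenes had no row in the annotation used here, which covers only some unigenes, so a match was not looked up. TRINITY_DN21515_c1_g1 had 796, 10138 and 613 FPKM in January larvae, against 16591, 30593 and 12446 FPKM in May larvae, without overlap, but with a spread in January that left it short of the threshold (log2 fold change -3.44 ± 1.15 (SE), limma adjusted p = 0.0413). TRINITY_DN20253_c0_g1 had 1101, 8894 and 3442 FPKM in January larvae, against 15829, 31187 and 7473 FPKM in May larvae, and the groups overlapped. TRINITY_DN21253_c0_g1 behaved differently from these, with 6728, 6333 and 20212 FPKM in January larvae, against 8641, 6109.6 and 7761 FPKM in May larvae. It was also abundant in adults, at 283 to 3454 FPKM, so its ratio was only 1.77.

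Several of the most abundant unigenes shared the same 2 high larvae, a pattern picked out after the values were seen. January larva 2 was the highest January larva and May larva 2 the highest May larva for 16 of the 150, among them TRINITY_DN20229_c0_g1, TRINITY_DN21515_c1_g1, TRINITY_DN20253_c0_g1, TRINITY_DN22255_c0_g1 and the pair TRINITY_DN22978_c0_g1 and TRINITY_DN22978_c0_g2. These 16 took 0.721%, 5.38% and 1.31% of FPKM in January larvae 1, 2 and 3, against 8.46%, 23.2% and 3.20% in May larvae 1, 2 and 3. TRINITY_DN22978_c0_g1 had 1272, 12714 and 2005 FPKM in January larvae, against 1789, 13604 and 1719.9 FPKM in May larvae. Its partner TRINITY_DN22978_c0_g2 had 655, 2932 and 521 FPKM in January larvae, against 2108, 21076 and 2320.4 FPKM in May larvae. The 6 named here were the abundant ones, and the other 10 had larval means of at most 274 FPKM, so the shares come from the 6. All 16 were picked as highest in January larva 2 and May larva 2 of their groups, so the higher shares there follow from the choice. The other combinations of a highest January and a highest May larva held 7 to 30 unigenes. Across the 150, May larva 3 was the highest larva for 40 unigenes, January larva 1 for 30, May larva 1 and May larva 2 for 26 each, January larva 3 for 16 and January larva 2 for 12.

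Between months, 13 of the 150 were called lower in January larvae than in May larvae and 1 was called higher. A call needed an adjusted p under 0.01 in limma and a log2 fold change of at least 1 in size, on the log2(FPKM + 1) scale, which understates the change of weakly expressed unigenes. Over all 11635 unigenes tested, 3.63% were called lower and 32.0% higher. The median log2 fold change (January minus May) was -0.43 over the 150 and 1.26 over all unigenes tested. The fold changes of the 150 ran between -4.63 and 2.03, with quartiles at -1.25 and 0.31. At an unadjusted p under 0.05, 41 of the 150 were lower in January larvae and 11 were higher, beside 7.98% lower and 51.9% higher of all unigenes tested. Of the 64 with a ratio of 2 or more, 7 were called lower and none higher, with a median of -0.60.

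The values themselves were also compared by their order. In 45 of the 150 every January larva was below every May larva, against 8.81% of all unigenes tested, and in 15 every January larva was above every May larva, against 53.4%. The 2 groups overlapped in the other 90. In 8 the months did not overlap in adults either and stood in the opposite order there, beside 6.74% of all unigenes tested in larvae. January larvae had 18600, 15028 and 25771 unigenes at 1 FPKM or more, against 16681, 8291 and 8428 in May larvae, and the 150 had been chosen for their lowest larva. The choice left out unigenes at or near 0 in any larva, so the distance to all unigenes tested is not independent of it. When the test was limited to unigenes at 1 FPKM or more in all 6 larvae, 13 of the 144 chosen unigenes left were called lower and none higher, with a median of -0.40. Of all 5673 unigenes in that test, 4.55% were called lower and 20.6% higher, with a median of 0.72.

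**Figure D4:**
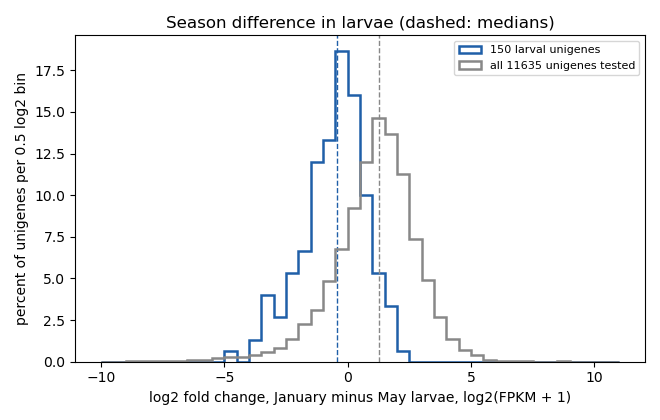
Percent of unigenes in each bin of 0.5 on the log2 scale, for the log2 fold change of January minus May larvae, for the 150 unigenes (blue) and all 11635 tested (grey), with dashed lines at the medians of -0.43 and 1.26. The 150 lie to the left of all unigenes tested and reach neither end of the wider distribution. The rule used the lowest larva, so this distance is not independent of the choice.

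The balance of calls depended on how the libraries were scaled. When libraries were scaled by the median of their ratios to an average library (median-of-ratios scaling), the median over the 150 moved to -1.80 and that over all unigenes to 0.31, and 47 of the 150 were called lower and none higher. Over all unigenes tested, 10.2% were then called lower and 14.5% higher. With the same scaling on 1296 unigenes that match *Dendroctonus*, the medians were -1.35 over the 150 and 0.63 over all, with 34 of the 150 called lower and none higher, beside 7.31% lower and 19.6% higher of all. With equal FPKM sums they were -0.18 over the 150 and 1.34 over all, with 9 of the 150 called lower and 2 higher, beside 2.73% lower and 33.9% higher of all. Under these 4 scalings 86 of the 150 stayed below 0 and 7 stayed above 0, while 57 changed sign. Of the 13 called lower, 9 were called lower in all 4.

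The number of calls depended on single larvae. Without May larva 1 limma called none of the 150 (37 were lower and 6 higher at an unadjusted p under 0.05), and 953 of all unigenes, 1.05% of those tested being called lower. Without both January larva 3 and May larva 1 limma called no unigene at all (5439 had an unadjusted p under 0.05), and 22 of the 150 were lower and 2 higher at that unadjusted p. With 1 other larva left out, the number of the 150 called lower, beside the percent of all unigenes called lower, was 7 and 2.65% (January larva 1), 9 and 2.33% (January larva 2), 3 and 1.58% (January larva 3), 6 and 1.77% (May larva 2) and 4 and 1.95% (May larva 3). Calls over all unigenes thus became fewer in the same fits.

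The unigene with the largest ratio also had the largest called change. TRINITY_DN18275_c0_g1 fell in January larvae (log2 fold change -4.00 ± 0.62 (SE), limma adjusted p = 0.0026). TRINITY_DN17141_c0_g1 fell nearly as much (log2 fold change -3.97 ± 0.73 (SE), limma adjusted p = 0.00477) at far lower levels. TRINITY_DN18554_c0_g1 fell too (log2 fold change -3.14 ± 0.51 (SE), limma adjusted p = 0.00296). None of these has a match in the annotation used here.

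TRINITY_DN24129_c0_g1 comes from the same assembly component as TRINITY_DN24129_c0_g2, which was listed at 0 in every adult, and reads may have been split between them. It had 15.9, 58.4 and 51 FPKM in January larvae, against 295, 225 and 531 FPKM in May larvae (log2 fold change -3.14 ± 0.59 (SE), limma adjusted p = 0.00512) and no more than 0.12 FPKM in adults. TRINITY_DN24129_c0_g2 was lower in every January larva as well but was not called (log2 fold change -1.42 ± 0.42 (SE), limma adjusted p = 0.026). Both members of the pair thus had January below May without overlap, and they differed in the size of the gap.

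The smallest adjusted p-values belonged to 2 unigenes of medium level with no row in the annotation used here. TRINITY_DN15893_c0_g1 had 79.7, 55.7 and 59.2 FPKM in January larvae, against 504, 281 and 452 FPKM in May larvae (log2 fold change -2.62 ± 0.35 (SE), limma adjusted p = 0.00173). TRINITY_DN24188_c0_g1 had 19.4, 12.6 and 15.7 FPKM in January larvae, against 105, 73.1 and 95.7 FPKM in May larvae (log2 fold change -2.45 ± 0.32 (SE), limma adjusted p = 0.00157), the smallest adjusted p among the 150. In both, the lowest May larva was several times the highest January larva, and adults stayed at or below 7.27 FPKM.

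TRINITY_DN27754_c5_g1 had 16.6, 7.31 and 13 FPKM in January larvae, against 108, 54.4 and 111 FPKM in May larvae (log2 fold change -2.79 ± 0.44 (SE), limma adjusted p = 0.00288). TRINITY_DN22667_c0_g1 had 181, 355 and 104 FPKM in January larvae, against 1534, 1440.2 and 689 FPKM in May larvae (log2 fold change -2.60 ± 0.57 (SE), limma adjusted p = 0.00893), with May larva 3 below the other May larvae. TRINITY_DN21453_c0_g1 had 327, 239 and 284 FPKM in January larvae, against 1066, 893 and 1984 FPKM in May larvae (log2 fold change -2.13 ± 0.42 (SE), limma adjusted p = 0.00594). In all of these the January larvae lay together below the May larvae, and the May larvae were the more spread group in FPKM.

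TRINITY_DN18796_c0_g1 had 86.1, 54.9 and 47.1 FPKM in January larvae, against 247, 212 and 322 FPKM in May larvae (log2 fold change -2.06 ± 0.35 (SE), limma adjusted p = 0.00371). TRINITY_DN19222_c3_g1 had 40.4, 28.6 and 47.9 FPKM in January larvae, against 97.3, 114 and 152 FPKM in May larvae (log2 fold change -1.62 ± 0.34 (SE), limma adjusted p = 0.0074). These last calls had modest gaps, and TRINITY_DN19222_c3_g1, TRINITY_DN22667_c0_g1 and the 2 annotated unigenes described next were not called with equal FPKM sums.

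**Figure D5:**
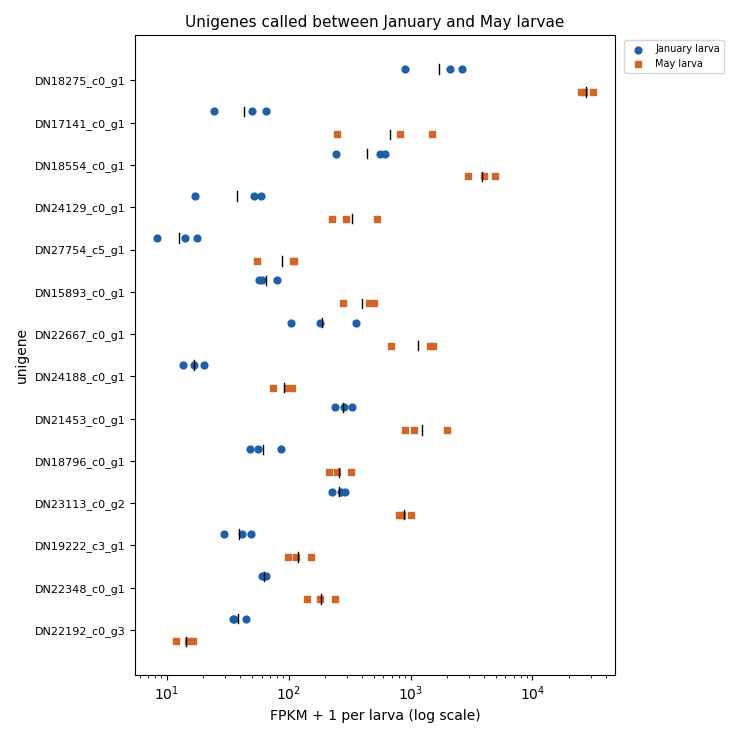
Each point is 1 larva, as FPKM + 1 on a log scale, for the 14 unigenes called between months, with January larvae above May larvae in each row, ordered by log2 fold change, and a bar at the mean of log2(FPKM + 1). In the upper 13 rows every January larva lies below every May larva, and in the last row, TRINITY_DN22192_c0_g3, the order is the other way.

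Of the 13 called lower, 2 have a named match in the annotation used here. TRINITY_DN23113_c0_g2 matched innexin inx1, a subunit of the gap junctions through which insect cells exchange ions and small molecules. It had 226, 291 and 266 FPKM in January larvae, against 1010.0, 845 and 798 FPKM in May larvae (log2 fold change -1.76 ± 0.31 (SE), limma adjusted p = 0.00426), and adults had 46.6 to 148 FPKM. TRINITY_DN22348_c0_g1 matched antichymotrypsin-2-like, a name given to serpins, which block serine proteases. It had 61.2, 64.5 and 59.5 FPKM in January larvae, against 241, 179 and 139.5 FPKM in May larvae (log2 fold change -1.54 ± 0.31 (SE), limma adjusted p = 0.00671). Its 3 January larvae were nearly equal, and its adults, at 6.46 to 45.1 FPKM, came close to the January larvae.

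The single unigene called higher in January larvae was TRINITY_DN22192_c0_g3, which has no row in the annotation used here. It had 34.1, 43.9 and 34.8 FPKM in January larvae, against 15.3, 10.9 and 14 FPKM in May larvae (log2 fold change 1.43 ± 0.30 (SE), limma adjusted p = 0.00804). It stayed above 0 under all 4 scalings, with a log2 fold change of 0.05 under median-of-ratios scaling, and of these 4 it was called with FPKM as deposited and with equal sums. The others that stayed above 0 under all 4 were TRINITY_DN18954_c0_g1, TRINITY_DN24802_c1_g1, TRINITY_DN25102_c0_g5, TRINITY_DN27458_c2_g1, TRINITY_DN27464_c2_g2 and TRINITY_DN27600_c1_g1, none of them called as deposited.

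TRINITY_DN27600_c1_g1 is the only one of the 150 whose assembled sequence was in the part of the assembly used here. It had 309, 446 and 438 FPKM in January larvae, against 129, 237 and 85.7 FPKM in May larvae, without overlap (log2 fold change 1.50 ± 0.45 (SE), limma adjusted p = 0.0277), and 14.7 to 29.6 FPKM in adults. The unigene is 3527 bases long, and its longest open reading frame on the strand as assembled covers positions 2213 to 3526. The frame has 438 codons and runs to the end of the unigene with no stop codon, so the coding sequence is not complete. Its first 300 bases are printed to show the coding start of a larval unigene that was higher in January, with the start codon in capitals, at positions 2213 to 2512.
TRINITY_DN27600_c1_g1: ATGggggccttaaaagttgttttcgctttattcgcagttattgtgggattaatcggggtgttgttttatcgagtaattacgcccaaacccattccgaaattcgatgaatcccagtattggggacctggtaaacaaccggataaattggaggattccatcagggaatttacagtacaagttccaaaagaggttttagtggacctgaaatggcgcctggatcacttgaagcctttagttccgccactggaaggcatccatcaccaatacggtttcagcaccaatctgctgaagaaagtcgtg

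Only 17 of the 150 have a row in the annotation used here, which covers 2652 unigenes. Their best match was a *Dendroctonus* protein in 16 of 17, beside 1913 of the 2652. The cuticle was represented by TRINITY_DN12641_c0_g1, a cuticle protein with a chitin-binding domain of the kind that binds chitin in the larval skin. It had 39.9, 87.2 and 46.8 FPKM in January larvae, against 199, 128 and 545 FPKM in May larvae, without overlap, and 1.3 to 14.5 FPKM in adults, with the season difference in larvae short of the threshold (log2 fold change -2.12 ± 0.61 (SE), limma adjusted p = 0.0242). May larva 3 was far above the other larvae. The study listed this unigene among those differing between months in both stages.

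The 2 matches to enzymes that cut proteins had overlapping larval groups. TRINITY_DN26021_c3_g1 matched neprilysin-11, a membrane metallopeptidase of the family that cuts peptides outside the cell. It had 241, 152 and 178 FPKM in January larvae, against 227, 290.2 and 219 FPKM in May larvae and 11.6 to 76.9 FPKM in adults. TRINITY_DN26906_c0_g1 matched the serine protease Hayan, which in *Drosophila* acts in melanization after wounding. It had 30.8, 11.3 and 17.6 FPKM in January larvae, against 8.87, 17.5 and 35.2 FPKM in May larvae. Their season differences were -0.38 ± 0.32 and 0.05 ± 0.59 (log2, SE), and neither was called.

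Lipid and small-molecule metabolism was represented by TRINITY_DN19691_c0_g1, an acyl-CoA desaturase, the enzyme that puts double bonds into fatty acids. It had 166, 186 and 141 FPKM in January larvae, against 423, 344 and 329 FPKM in May larvae. The January larvae were all below the May larvae, and the difference came near the threshold without passing it (log2 fold change -1.15 ± 0.30 (SE), limma adjusted p = 0.0168). Adults had the same order, with 27, 42.5 and 23.3 FPKM in January adults, against 74.8, 102 and 68.7 FPKM in May adults. The study, with DESeq2, counted this unigene too among those differing between months in both stages, and reports quantitative PCR differences like its RNA-seq. The quantitative PCR primers of this unigene are shown, as it is the other of the 150 that was measured that way.
Forward primer of TRINITY_DN19691_c0_g1: acgccactgacctggaaaat
Reverse primer of TRINITY_DN19691_c0_g1: tcccagatgttgattgcgct

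TRINITY_DN21216_c0_g1 matched retinol dehydrogenase 14, a short-chain dehydrogenase, and had 32.2, 22.4 and 83 FPKM in January larvae, against 44.9, 59.6 and 57.4 FPKM in May larvae, with overlap. Transporters of the cell membrane were TRINITY_DN25764_c0_g1, a sodium/nucleoside cotransporter, and TRINITY_DN26256_c0_g1, a proton-coupled amino acid transporter. The first had 55.5, 29.6 and 25.1 FPKM in January larvae, against 61.3, 37.7 and 27.7 FPKM in May larvae, and the second had 207, 110.0 and 166 FPKM in January larvae, against 150.5, 84 and 83.5 FPKM in May larvae. Both groups overlapped in each, so their levels did not separate the months.

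In the cell interior, TRINITY_DN25968_c0_g2 matched adenylyl cyclase-associated protein 1, which binds actin, and had 128, 80.5 and 80.3 FPKM in January larvae, against 105, 89.3 and 278 FPKM in May larvae. TRINITY_DN27687_c5_g1 matched tetratricopeptide repeat protein 37, whose human relative belongs to an RNA decay complex, and had 21.9, 10.2 and 18.1 FPKM in January larvae, against 20.9, 20.3 and 14.6 FPKM in May larvae. TRINITY_DN27239_c3_g1 matched CIAO1, known from yeast and human cells for the assembly of cytosolic iron-sulfur proteins, and had 269, 135 and 160.3 FPKM in January larvae, against 147, 127 and 164 FPKM in May larvae. The larval groups overlapped in these, and CIAO1 was the one whose best match was not a *Dendroctonus* protein but one of the bird *Charadrius vociferus*.

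The other annotated unigenes match proteins with no known role. TRINITY_DN21909_c1_g1 had 184, 116 and 192 FPKM in January larvae, against 222, 188 and 335 FPKM in May larvae, and 0.48 to 18.7 FPKM in adults. TRINITY_DN22758_c0_g2 had 639, 419 and 597 FPKM in January larvae, against 1323, 849 and 1001 FPKM in May larvae, and TRINITY_DN22453_c0_g6 had 359.5, 245 and 289 FPKM in January larvae, against 497, 766 and 705 FPKM in May larvae. The last 2 were lower in every January larva than in any May larva, and neither was called (-0.94 ± 0.37 and -1.13 ± 0.35, log2 fold change and SE).

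Of the 2652 unigenes with a row in the annotation used here, 17 were among the 150, so any keyword list lay mostly outside them. The other 133 of the 150 have no row and could appear in no list. Of 12 unigenes with a cuticle or chitin keyword 1 was among the 150, and 2 were called higher and 3 lower of 8 tested, January larvae against May larvae. Of 30 protease matches 2 were among the 150, and 2 were called higher and 10 lower of 27 tested, the 2 being the inhibitor TRINITY_DN22348_c0_g1 and the Hayan match TRINITY_DN26906_c0_g1. The neprilysin match TRINITY_DN26021_c3_g1 carries none of the keywords of this list and was not counted in it. Of 41 matches to enzymes of sugar polymers, such as glucosidases and pectinases, none was among the 150, and 1 was called higher and 27 lower of 35 tested. The hormone and storage list (10 unigenes) had 1 called higher and 4 lower of 7 tested, the detoxification list (36) had 6 higher and 11 lower of 29, and the homeobox and chemoreception list (23) had 3 higher and none lower of 7, with none of the 150 in any of them. Median log2 fold changes in the order named were -1.76, -2.41, -4.48, -4.54, -1.31 and 1.56, beside 1.26 over all unigenes tested. Most annotated unigenes of the first 5 lists (8 of 12, 19 of 30, 36 of 41, 8 of 10 and 23 of 36) come from rows that the study had selected for a season difference on these insects, so these counts are not independent evidence of a direction.

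Other unigenes of the 150 hardly varied among larvae. The highest larva exceeded the lowest by 1.28 to 851 times, with a median of 4.68, beside 5.75 over all unigenes at 1 FPKM or more in all 6 larvae. By the SD of log2(FPKM + 1), which shrinks the spread of low values, TRINITY_DN19829_c4_g5 varied least, with 4.63, 3.76 and 4.31 FPKM in January larvae, against 3.39, 3.87 and 4.16 FPKM in May larvae. TRINITY_DN25558_c0_g1 had 20.5, 19.4 and 20.9 FPKM in January larvae, against 22.8, 17.4 and 17.6 FPKM in May larvae, and TRINITY_DN21048_c1_g2, which had the smallest ratio of highest to lowest larva, had 97.2, 119 and 98.8 FPKM in January larvae, against 122, 100 and 96 FPKM in May larvae. The next were TRINITY_DN21653_c0_g2, with 70, 49.8 and 48.1 FPKM in January larvae, against 57.6, 57.1 and 53.9 FPKM in May larvae, and TRINITY_DN22151_c0_g3, with 576, 386 and 408 FPKM in January larvae, against 429, 414 and 420.1 FPKM in May larvae. These 5 had overlapping groups as deposited, but their log2 fold changes moved below -1 under median-of-ratios scaling, so whether they were level between months depended on the scaling.

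Some of the 150 came from shared components of the assembly. There were 5 such components with 10 unigenes. In TRINITY_DN22176, TRINITY_DN22176_c0_g1 had 259, 221 and 139 FPKM in January larvae, against 363, 215 and 658 FPKM in May larvae, and TRINITY_DN22176_c0_g2 had 52.9, 31.9 and 49.4 FPKM in January larvae, against 67.8, 41 and 33.9 FPKM in May larvae. In TRINITY_DN20223, TRINITY_DN20223_c0_g1 had 2.37, 2.03 and 14.5 FPKM in January larvae, against 3.88, 14.7 and 32.9 FPKM in May larvae, and TRINITY_DN20223_c0_g3 had 4.71, 6.21 and 4.96 FPKM in January larvae, against 5.59, 16.6 and 13.1 FPKM in May larvae. In TRINITY_DN23365, TRINITY_DN23365_c0_g2 was highest in January larva 3 and TRINITY_DN23365_c0_g3 in May larva 2. Unigenes of 1 component did not always follow each other across larvae, and reads shared between sequences of 1 component could have been split by the counting.

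The mirror choice, the 150 unigenes highest in adults relative to larvae, was set beside them. The larval set had 64 ratios of 2 or more, against 66 in the adult set, and the largest was 543 in the larval set, against 383 in the adult set. Of the larval set 4 were listed at 0 in all 6 adults, against 74 of the adult set at 0 in all 6 larvae. Over all unigenes, 23573 to 45587 were at 0 in a larva, against 20471 to 27228 in an adult. The adult set took 0.00417% to 0.0169% of FPKM in larvae, and 1.16%, 1.21% and 0.957% in January adults, against 9.81%, 6.0% and 11.7% in May adults. Between months in adults, 2 of the 130 that entered the test were called higher in January and 16 lower, with a median of -0.13, beside 28.3% called higher, 4.3% called lower and a median of 1.02 over all 23423 unigenes tested in adults. These 18 calls became 4 without January adult 2 and 2 without May adult 3, when all calls in adults became 39 and 50. The rule for the adult set used the lowest adult, so its distance to all unigenes tested in adults is not independent of that choice. The 2 sets were not compared by a test.

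The choice of the 150 itself depended on the settings. The same rule kept 99 of them with median-of-ratios scaling, 115 with equal FPKM sums, 138 with 0.1 added in place of 1 and 137 with 5 added. Leaving out 1 library kept 117 to 144. Of the 64 with a ratio of 2 or more, 62 were kept with median-of-ratios scaling and 64 with equal sums, and in all 64 every larva stayed above every adult under both. Of the 150, 141 and 116 still had every larva above every adult. Membership thus changed mainly among the unigenes with a ratio under 2.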

How the data were processed

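Poly(A) mRNA purified from the total RNA of whole single insects was sequenced on an Illumina platform, and per the submitters' notes and the study's methods reads were placed on a Trinity assembly with Bowtie2 2.3.5.1 and quantified with RSEM 1.2.31. What the authors deposited is 1 FPKM value, with 2 decimals, per unigene and library. No genome was used. Read counts were not analysed here, so the number of reads behind each value is unknown. Precision comes from the spread among 3 insects per group. The study lists the bases sequenced per library. It also lists a higher GC content in every May larva than in every January larva, and a lower base quality in every larva than in every adult. What these differences did to the values was not tested.

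FPKM were used as deposited. January and May larvae were compared with limma 3.58.1 (R 4.3.3, trend option) on log2(FPKM + 1), two-sided, over unigenes at 1 FPKM or more in at least 3 of the 6 larvae (11635, all 150 chosen unigenes among them), with Benjamini-Hochberg adjustment over all of these. A call needed an adjusted p under 0.01 and a log2 fold change of at least 1 in size. Adults were treated alike. The script was tested on simulated data with independent noise and no differences between libraries. That test does not cover the dependence of the calls on scaling and on single larvae. Library shares were compared with exact permutation tests (scipy 1.17.1). Other tools were Python 3.11.15, numpy 2.4.6, pandas 2.3.3 and matplotlib 3.10.9. Larvae against adults was not tested, since it chose the unigenes.

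Alternatives were other added values, filters, thresholds and scalings, the replicate number as a block, all 12 libraries in 1 fit, and libraries left out. The combination of median-of-ratios scaling with 1 FPKM in all 6 larvae was chosen after seeing the data. The unigenes, lists and rules were chosen with earlier results of these data known. Named unigenes are the 10 with the largest ratio, the 5 just inside and the 5 just outside the threshold, the 5 most abundant in larvae, all with a match, those called between months without overlap (up to 10 in each direction), the 5 with the smallest larval spread and any with an assembled sequence. Others named were chosen after their values were seen. Annotation came from the rows used here of the study's Nr matches (1999 rows) and of its list of common season unigenes (712 rows).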

Additional observations from a re-analysis of the deposited data

Results flagged for a closer look

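In 8 unigenes of the 150 the months were in opposite order in larvae and adults, with no overlap between months in either stage. That is 5.33% of the 150, beside 6.74% of all 11635 unigenes tested in larvae. Since adult values helped to choose the unigenes, this difference was not tested. The values that follow are the larval minus the adult log2 fold change, each January minus May on the log2(FPKM + 1) scale.

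The widest was TRINITY_DN20229_c0_g1 at -7.98, with 2967, 17425 and 4556 FPKM in January larvae, against 58620.5, 131853 and 30035 FPKM in May larvae, and 42.9, 390.1 and 76.4 FPKM in January adults, against 3.78, 1.75 and 5.22 FPKM in May adults. Then came TRINITY_DN20596_c0_g1 at -2.85, TRINITY_DN22758_c0_g2 at -2.34, TRINITY_DN18560_c0_g1 at -2.33, TRINITY_DN22388_c0_g1 at -2.16, TRINITY_DN25041_c0_g1 at -1.85 and TRINITY_DN21036_c1_g2 at -1.74. In these 7 January larvae were lower than May larvae while January adults were higher than May adults. TRINITY_DN18954_c0_g1 went the other way at 2.02, with 10.5, 21.7 and 12.8 FPKM in January larvae, against 3.55, 9.31 and 2.23 FPKM in May larvae, and 0.63, 0.79 and 0.89 FPKM in January adults, against 1.41, 1.53 and 1.53 FPKM in May adults.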

How the results depend on the processing

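Replicate numbers did not pair the larvae: deviations of January and May larvae with the same number correlated at -0.56, 0.09 and -0.42. Between larvae of different numbers the correlations ran between -0.37 and 0.62, the highest being January larva 3 with May larva 1. With the replicate number as a block, limma called 0 of the 150 and 0 of all unigenes in larvae (39 of the 150 lower, 9 higher and 6419 of all at an unadjusted p under 0.05). The 13 calls lower in January became 0 with no filter on low values, 33 at an adjusted p under 0.05, 47 with median-of-ratios scaling, 34 with the *Dendroctonus* scaling and 52 with median-of-ratios scaling and 1 FPKM in all 6 larvae. They were 0 to 9 when 1 larva was left out, and 0 without both January larva 3 and May larva 1. The 1 call higher became 7 at an adjusted p under 0.05, 2 with equal sums, 0 to 1 when 1 larva was left out, and 0 without a filter, with 1 FPKM in all 6 larvae, with all 12 libraries in 1 fit, with either other scaling, with the added combination and without the 2 larvae.

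All calls in larvae (4149) became 269 without a filter, 1424 with 1 FPKM in all 6 larvae, 6263 at an adjusted p under 0.05, 2376 with all 12 libraries in 1 fit, 1408 with the added combination and 0 without the 2 larvae. They were 953 (without May larva 1) to 3380 when 1 larva was left out. In adults all calls (7632) were 39 (without January adult 2) to 9075 and those of the adult-specific set (18) 2 to 22 when 1 adult was left out, and 50 calls remained without May adult 3. Membership kept 99 of 150 with median-of-ratios scaling.

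The median over the 150 moved to -1.80, -1.35 and -1.78 with median-of-ratios scaling, the *Dendroctonus* scaling and the added combination, and stayed below 0 otherwise. Its distance to the median of all unigenes (-1.69) was -2.23 and -2.45 with 0.1 and 0.01 added, -0.73 without a filter, -1.12 with 1 FPKM in all 6 larvae, -1.0 with all 12 libraries and -1.20 with the added combination. The difference in library share kept its sign throughout.

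Of 910 values for the 48 unigenes of the 150 named by rule under up to 19 alternatives, 701 kept direction and side of the threshold, 116 lost a call, 45 gained one and 48 changed sign. No unigene called as deposited was among the last. With median-of-ratios scaling (with or without 1 FPKM in all 6 larvae) and then the *Dendroctonus* scaling, log2 fold changes turned to -1.08 and -0.62 (TRINITY_DN21253_c0_g1), -0.82 and -0.37 (TRINITY_DN26256_c0_g1), -1.32 and -0.88 (TRINITY_DN26906_c0_g1), -0.49 and -0.038 (TRINITY_DN14382_c0_g1), -1.07 and -0.68 (TRINITY_DN19829_c4_g5), -1.30 and -0.86 (TRINITY_DN25558_c0_g1), -1.34 and -0.88 (TRINITY_DN22151_c0_g3), -0.63 and -0.18 (TRINITY_DN19727_c0_g1) and -1.12 and -0.67 (TRINITY_DN27239_c3_g1). With equal sums TRINITY_DN25764_c0_g1 turned to 0.046, TRINITY_DN27687_c5_g1 to 0.053, TRINITY_DN21048_c1_g2 to 0.25 and TRINITY_DN21653_c0_g2 to 0.23. With 1 larva left out, they ran between -0.19 and 0.65 (TRINITY_DN21253_c0_g1), -0.54 and 0.096 (TRINITY_DN25764_c0_g1), -0.40 and 0.11 (TRINITY_DN27687_c5_g1), -0.11 and 0.094 (TRINITY_DN21048_c1_g2), -0.20 and 0.069 (TRINITY_DN21653_c0_g2), -0.084 and 0.20 (TRINITY_DN22151_c0_g3) and -0.41 and 0.52 (TRINITY_DN26906_c0_g1). Without the 2 larvae TRINITY_DN21253_c0_g1 reached -0.077, TRINITY_DN25764_c0_g1 0.32, TRINITY_DN21048_c1_g2 0.13, TRINITY_DN21653_c0_g2 0.087 and TRINITY_DN26906_c0_g1 -0.39. The causes were not tested.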
